A study of Xenopus laevis with 18 samples.

Results

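The anterior Hox genes, those of paralog groups 1 to 5, were followed through gastrulation in Xenopus laevis embryos injected with Gam1 mRNA or with water. They were taken as the probe sets whose gene symbol is hoxa, hoxb, hoxc or hoxd followed by a group number from 1 to 5. This gave 8 of the 23630 probe sets tested: 1 for hoxd1, 1 each for hoxa2.L and hoxa2.S, 1 each for hoxb2.S and hoxb4.S, and 3 for hoxc5.L. They stand for 5 genes and 6 gene copies, where .L and .S mark the copies on the long and short chromosomes of this allotetraploid frog. The name hoxd1 came from the study's supplementary gene table, matched to the array on all 18 values, and its copy is not stated. The study describes that table as holding the genes it found changed between Gam1 and water embryos. So hoxd1 could enter only because the groups differed. Its change adds no independent support to the counts below. The 3 hoxc5.L probe sets read the same gene copy and are not independent of each other. The other anterior Hox genes, all of group 3 among them, are not analysed here.

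SUMO is a small protein that cells attach to many of their proteins, transcription factors among them. Gam1, which comes from a bird adenovirus, blocks this by depleting the enzyme that activates SUMO. Embryos were injected at the one-cell stage with 9.2 nL holding 0.5 ng of this mRNA, and controls with water. Whole embryos were collected at early gastrula (9 h after fertilization), late gastrula (13.5 h) and early neurula (16.5 h). Each array held RNA of 20 pooled embryos, with 3 biological replicates per group and stage, 18 Affymetrix arrays in all. The labels name no strain or genotype, the controls received no RNA, and the arrays do not measure Gam1 or SUMO attachment. In whole embryos fewer cells of a type and less RNA per cell cannot be told apart. Embryos were taken at set hours, and the study reports that blastopore closure was late or incomplete under Gam1. Whether a delay in development has a part in lower signals of rising genes was not tested.

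Hox genes encode homeodomain transcription factors that give cells their position along the head-to-tail axis. They lie in clusters, and as a rule genes at the 3′ end of a cluster, the anterior groups, are switched on earlier and nearer to the head than those at the 5′ end. In vertebrate embryos groups 1 to 5 pattern the hindbrain and the upper spinal cord, and retinoic acid, Wnt and FGF signals set their borders. The RefSeq annotation of the Xenopus_laevis_v10.1 assembly places hoxb2.S beside hoxb1.S, hoxb4.S beside hoxb5.S and hoxc5.L beside hoxc6.L.

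All values are log2 signals, as the authors normalized them, and 1 unit is a doubling. Arrays share a median of 7.72. The scale starts at 2.07, and where a group is near this floor the change against it is a lower limit. Changes are given as the Gam1 minus the water mean with their SE, from a limma fit of the 6 arrays of a stage. Adjustment was by Benjamini and Hochberg over all 23630 probe sets, and a probe set is said to be called where the adjusted p was under 0.05. The unpaired fit called 0 probe sets at each stage, that is 0% of the table. The lowest adjusted p reached by any probe set was 0.817, 0.0758 and 0.0548 in order of stage.

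At early gastrula the anterior Hox mRNAs were at or near the floor in both groups. All 48 values of the 8 probe sets lay between 2.07 and 3.30, and hoxd1 in water embryos had the highest, at 2.19, 2.91 and 3.30 on replicates 1, 2 and 3. Gam1 arrays of hoxd1 gave 2.13, 2.42 and 2.27, and the groups overlapped. None of the 8 had all Gam1 arrays below all water arrays, against 0.931% of all probe sets, or above them, against 0.994%, and none had an unadjusted p under 0.05 and a lower signal, against 0.284%. At this level no difference can be read. At this stage 2 of the 8 were lower in all 3 pairs, against 15.6% of all probe sets, and 1 was higher in all 3 pairs, against 15.5%.

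**Figure D1:**
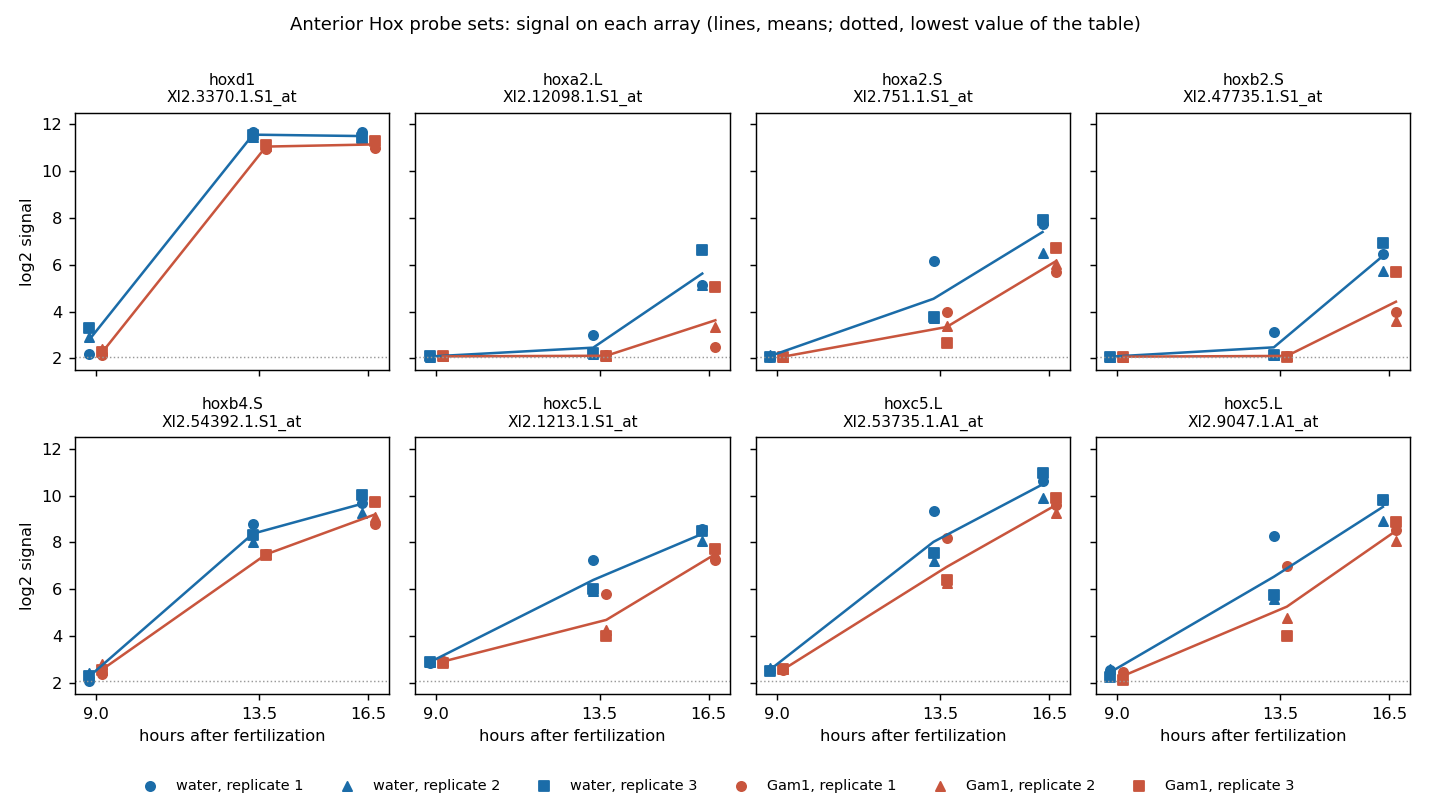
Log2 signal of the 8 anterior Hox probe sets on each of the 18 arrays against hours after fertilization, with water embryos in blue, Gam1 embryos in red, 1 marker shape per replicate number and lines through the group means (n = 3). At 9 h every value is at most 3.30, near the floor of 2.07 (dotted), and at 13.5 h and 16.5 h the red means lie below the blue ones in every panel.

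In water embryos the signals of hoxd1, hoxb4.S, hoxc5.L and, by less, hoxa2.S rose first, and those of hoxb2.S and hoxa2.L followed. This order of signals did not run by group number, since at late gastrula hoxb4.S averaged 8.37 in water embryos and hoxb2.S 2.47. Levels of different probe sets are not on 1 scale. On the same arrays the 3 probe sets of hoxc5.L averaged 6.40, 8.03 and 6.53. The order of onset between genes was therefore not tested. Between early and late gastrula 6 of the 8 probe sets rose in a limma fit of the 9 water arrays, against 24% of all probe sets. The group 1 gene hoxd1, a target of retinoic acid in Xenopus, went from 2.80 ± 0.57 (SD, n = 3) to 11.56 ± 0.12, a log2 change of 8.76 ± 0.27 (SE, adjusted p = 1.19e-06 in limma). The hoxb4.S signal, of a gene that marks the posterior hindbrain and spinal cord, rose by 6.10 ± 0.30 (adjusted p = 5.94e-06). The 3 hoxc5.L probe sets rose by 3.52 ± 0.37, 5.47 ± 0.55 and 4.08 ± 0.69, and hoxa2.S rose by 2.45 ± 0.68 (adjusted p = 0.0164). The hoxa2.S rise lost its call without replicate 1, where it was 1.63, and without replicate 3 (adjusted p = 0.0659 in limma). By contrast hoxa2.L changed by 0.38 ± 0.41 (adjusted p = 0.483) and hoxb2.S by 0.40 ± 0.35 (adjusted p = 0.38). Both were still between 2.13 and 3.14 on the water arrays of late gastrula.

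From late gastrula to early neurula 7 of the 8 rose in water embryos, against 4.09% of all probe sets. The largest rises were those of the genes that had still been at or near the floor. The paralog group 2 genes, which specify segments of the hindbrain and the neural crest of the second arch in vertebrates, rose by 3.91 ± 0.35 for hoxb2.S (adjusted p = 0.00312 in limma) and 3.17 ± 0.41 for hoxa2.L (adjusted p = 0.0119), with 2.86 ± 0.68 for hoxa2.S (adjusted p = 0.0459). The hoxc5.L probe sets rose by 1.97 to 2.99 and hoxb4.S by 1.28 ± 0.30 (adjusted p = 0.0436). Only hoxd1 was not called, with a change of -0.06 ± 0.27 and a 95% interval from -0.68 to 0.56. These later calls rest on all 3 replicates. With 1 replicate number left out at every stage, 2 remained called without replicate 1, and 0 without replicate 2 or without replicate 3. The whole table lost calls likewise. Over all probe sets, in both directions, they fell from 1838 to 260, 48 and 12 without replicates 1, 2 and 3.

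The same order of signals appeared in Gam1 embryos. Between early and late gastrula 6 of 8 rose, against 22.7% of all probe sets, with hoxd1 changing by 8.78 ± 0.15 (adjusted p = 1.30e-07 in limma), hoxb4.S by 4.91 ± 0.28, hoxa2.S by 1.27 ± 0.36 and the hoxc5.L probe sets by 1.78 to 4.38. In that interval hoxa2.L and hoxb2.S changed by 0.03 ± 0.54 and 0.04 ± 0.46 and stayed between 2.07 and 2.16 at late gastrula. Between late gastrula and early neurula 6 of 8 rose, against 5.28% of all probe sets, with hoxa2.S at 2.81 ± 0.36, hoxb2.S at 2.31 ± 0.46, hoxb4.S at 1.71 ± 0.28 and hoxc5.L at 2.64 to 3.24. The change of hoxa2.L was 1.51 ± 0.54 (adjusted p = 0.114) and that of hoxd1 0.09 ± 0.15 (95% interval -0.25 to 0.44). Without replicate 2, 3 of the earlier rises were called, and the later ones numbered 4 without replicate 1 and 0 without replicate 2 or 3. Over all probe sets, in both directions, the earlier calls went from 12065 to 8500 without replicate 2. The later calls went from 2832 to 418, 31 and 42 without replicates 1, 2 and 3.

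**Figure D2:**
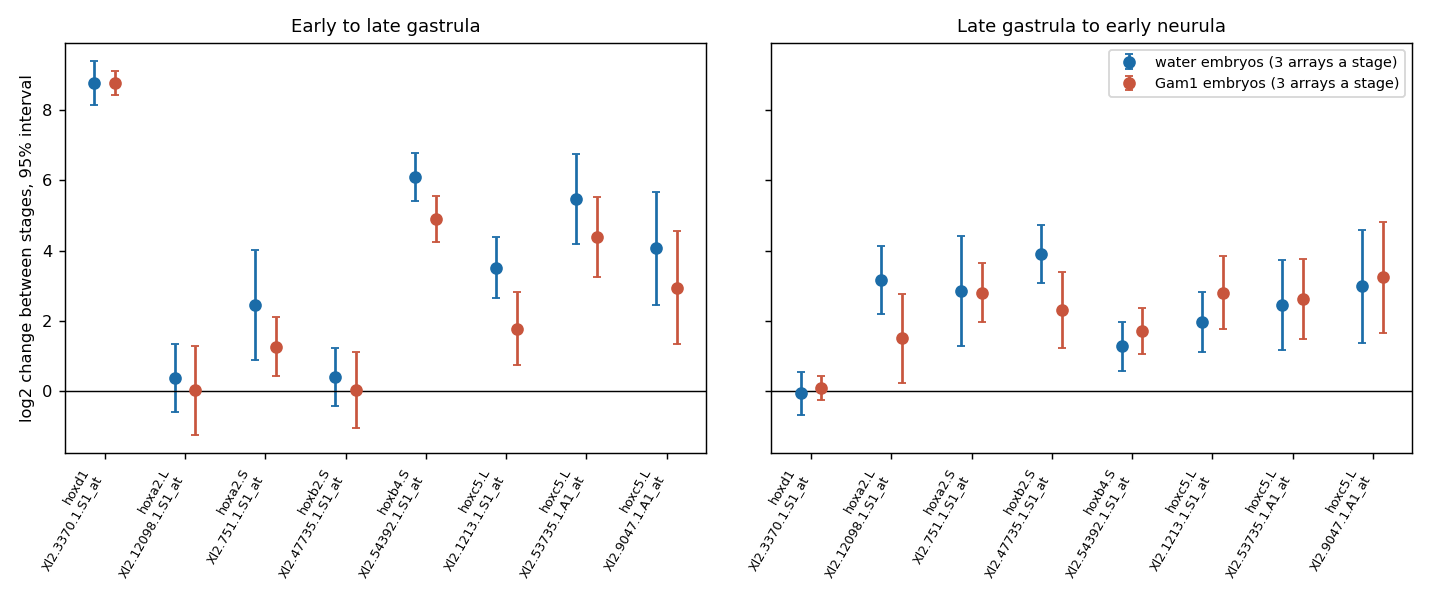
Log2 change of each anterior Hox probe set between stages, with 95% intervals from limma, in water embryos (blue) and Gam1 embryos (red), 3 arrays a stage. From early to late gastrula hoxd1 rose by over 8 in both, while hoxa2.L and hoxb2.S stayed near 0, and from late gastrula to early neurula these 2 rose by 3.17 and 3.91 in water embryos.

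At late gastrula every anterior Hox probe set had a lower signal in Gam1 than in water embryos in all 3 pairs of same-numbered arrays. That held for 22% of all probe sets, and for 5 of the 8 all Gam1 arrays lay below all water arrays, against 5.21% of all probe sets. Both counts include hoxa2.L and hoxb2.S, which lay at or near the floor on all arrays but water replicate 1. Their highest Gam1 and lowest water values were 2.16 and 2.17 for hoxa2.L and 2.12 and 2.13 for hoxb2.S, so for them no separation of the groups can be read. The median change was -0.98, against 0.00 over all probe sets. In the unpaired fit none was called, while 3 had a lower signal and an unadjusted p under 0.05, against 2.42% of all probe sets.

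Because Gam1 and water arrays of the same number moved together, fits with the replicate number as a block were run beside the unpaired one. Such a paired fit over all 18 arrays called 4 of the 8 at late gastrula, against 2.2% lower and called among all probe sets. That fit shares 1 spread over the stages, and the early gastrula arrays, at the floor, enter it: the pair differences of hoxa2.L had an SD of 0.00 there, 0.41 at late gastrula and 0.56 at early neurula. A fit limited to the 12 arrays of the later stages, chosen after the data were seen, called 2 of the 8, against 0.288%. With the block within the 6 arrays of the stage, 0 were called and 5 had an unadjusted p under 0.05, against 7.76%.

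The hoxd1 signal at late gastrula was 10.97, 11.07 and 11.12 on Gam1 replicates 1, 2 and 3 and 11.69, 11.45 and 11.55 on water replicates 1, 2 and 3. All Gam1 arrays were below all water arrays, by 0.72, 0.38 and 0.43 within pairs. The change was -0.51 ± 0.09, a 1.42-fold lower signal (adjusted p = 0.514 in limma, 0.136 in the paired fit over 18 arrays). It had the smallest unadjusted p of the 8, 0.00157, with a 95% interval from -0.73 to -0.29. That rank is no independent support, since hoxd1 was named through a table of genes the study found changed.

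Among the group 2 genes, hoxa2.S gave 3.97, 3.38 and 2.67 on Gam1 and 6.16, 3.72 and 3.76 on water arrays. The groups overlapped, since Gam1 replicate 1 exceeded water replicates 2 and 3. Its change was -1.21 ± 0.77 (adjusted p = 1 in limma, 0.0987 in the paired fit over 18 arrays) and -0.40 without water replicate 1. For hoxa2.L Gam1 arrays were at 2.16, 2.09 and 2.08 and water arrays at 2.98, 2.17 and 2.22. For hoxb2.S they were at 2.12, 2.12 and 2.07 against 3.14, 2.14 and 2.13. In both genes water replicate 1 alone stood clear of the floor, so the changes of -0.34 ± 0.23 and -0.37 ± 0.29 became -0.08 and -0.03 without it.

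The group 4 gene hoxb4.S gave 7.52, 7.49 and 7.46 on Gam1 and 8.81, 8.02 and 8.30 on water arrays. The Gam1 arrays agreed closely, with an SD of 0.03, and all were below the water arrays. The change was -0.88 ± 0.24, or 1.85-fold (adjusted p = 0.848 in limma). The paired fit over 18 arrays called it (adjusted p = 0.0366) and that over the 12 later arrays did not (adjusted p = 0.124).

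For hoxc5.L, a group 5 gene that in vertebrates acts at cervical and upper thoracic levels, probe set Xl2.1213.1.S1_at gave 5.81, 4.25 and 4.01 on Gam1 and 7.26, 5.92 and 6.01 on water arrays. No Gam1 value reached the lowest water value. The change of -1.71 ± 0.64, or 3.26-fold, was the largest of the 8 at this stage (adjusted p = 1 in limma, 0.00332 in the paired fit over 18 arrays, 0.0422 over the 12 later arrays).

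On Xl2.53735.1.A1_at the hoxc5.L values were 8.17, 6.28 and 6.41 on Gam1 and 9.34, 7.21 and 7.53 on water arrays. The groups overlapped through Gam1 replicate 1, but the pairs gave -1.16, -0.94 and -1.12, the tightest set of pair differences at this stage, with an SD of 0.12. The change was -1.07 ± 0.79 (adjusted p = 1 in limma, 0.00531 and 0.0378 in the paired fits over 18 and 12 arrays). On Xl2.9047.1.A1_at Gam1 arrays gave 6.98, 4.78 and 4.01 and water arrays 8.27, 5.57 and 5.76, a change of -1.28 ± 1.09 (adjusted p = 1 in limma, 0.0111 and 0.0695 in the paired fits). The changes of these 2 probe sets were -0.42 and -0.41 without water replicate 1, -1.68 and -2.14 without Gam1 replicate 1, and -1.03 and -1.27 with the whole pair left out.

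Replicate 1 of late gastrula was the highest array for most of these probe sets in both groups. Water replicate 1 was the highest water array for 8 of 8 probe sets, and Gam1 replicate 1 the highest Gam1 array for 6 of 8. Gam1 replicate 1 stood well above the others only in hoxa2.S and hoxc5.L. In hoxb4.S it was at 7.52 against 7.49 and 7.46, and in hoxd1 it was the lowest, at 10.97. The median pair difference was -1.22 in replicate 1, -0.45 in replicate 2 and -0.97 in replicate 3. Without water replicate 1 the median change of the 8 was -0.41, and without the whole pair -0.70. Probe sets of the 8 at an unadjusted p under 0.05 numbered 6 without replicate 1 and 1 without replicate 3. The share of all probe sets was not counted in these reduced fits, so whether the whole table moved likewise was not tested.

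**Figure D3:**
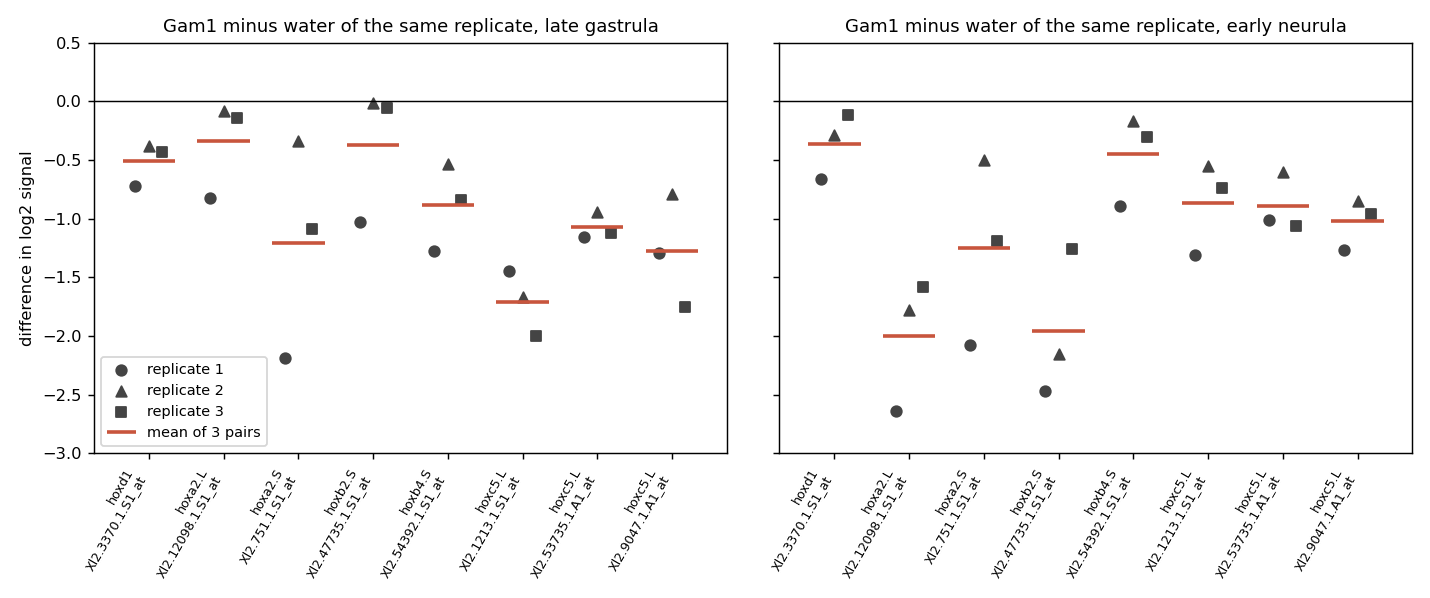
Difference in log2 signal between Gam1 and water arrays of the same replicate number for the 8 anterior Hox probe sets at late gastrula (left) and early neurula (right), 1 marker shape per replicate and a red bar at the mean of the 3 pairs. All 48 differences lie below 0, from -2.64 to -0.01.

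At early neurula all 8 probe sets were again lower in Gam1 embryos in all 3 pairs, against 24.4% of all probe sets, and the changes were largest in hoxa2.L and hoxb2.S. In 5 of 8 all Gam1 arrays lay below all water arrays, against 7.24%. The median change was -0.96, against -0.00 over all probe sets. The unpaired fit called 0, and 6 had a lower signal and an unadjusted p under 0.05, against 3.22%. The paired fit over 18 arrays called 5, against 3.47%, and that over the 12 later arrays 2, against 0.364%. The block within the stage called 0 and left 6 at an unadjusted p under 0.05, against 8.49%.

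The hoxa2.L signal at early neurula was 2.49, 3.34 and 5.05 on Gam1 and 5.13, 5.12 and 6.62 on water arrays. Every Gam1 array was below every water array, although Gam1 replicate 3 came within 0.1 of water replicates 1 and 2. The change was -2.00 ± 0.79, or 3.99-fold (adjusted p = 0.747 in limma, 0.00232 and 0.0373 in the paired fits over 18 and 12 arrays), and the pairs gave -2.64, -1.78 and -1.58.

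In hoxb2.S the Gam1 arrays gave 3.98, 3.61 and 5.67 and the water arrays 6.45, 5.75 and 6.93. The groups did not overlap, and the pairs gave -2.47, -2.15 and -1.26. The change was -1.96 ± 0.64, or 3.89-fold (adjusted p = 0.656 in limma, 0.00483 over 18 arrays, 0.055 over the 12 later arrays).

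The other copy of hoxa2, hoxa2.S, had 5.69, 6.02 and 6.73 on Gam1 and 7.76, 6.52 and 7.92 on water arrays, and Gam1 replicate 3 exceeded water replicate 2. Its change was -1.25 ± 0.50, or 2.39-fold (adjusted p = 0.747 in limma, 0.0676 in the paired fit over 18 arrays). The pairs gave -2.08, -0.50 and -1.19, and without pair 1 the change was -0.84. Both copies of hoxa2 were thus lower in each pair at early neurula. At late gastrula hoxa2.L lay at or near the floor on all arrays but water replicate 1, so the copies cannot be compared there. Whether the 2 copies differed in their change was not tested.

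For hoxd1 the early neurula values were 11.01, 11.15 and 11.28 on Gam1 and 11.67, 11.44 and 11.40 on water arrays, with no overlap. The change of -0.36 ± 0.11, or 1.28-fold (adjusted p = 0.619 in limma, 0.238 in the paired fit over 18 arrays), was the smallest of the 8. All Gam1 arrays of this stage, at most 11.28, were also below every water array of late gastrula, at least 11.45. In order of level the hoxd1 groups were water at late gastrula (11.56), water at early neurula (11.50), Gam1 at early neurula (11.15) and Gam1 at late gastrula (11.05). Neighbouring stages within each treatment did not differ beyond their spread.

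The hoxb4.S values at early neurula were 8.79, 9.07 and 9.74 on Gam1 and 9.68, 9.24 and 10.04 on water arrays, and the groups overlapped. The change was -0.45 ± 0.32 (adjusted p = 0.895 in limma, 0.148 in the paired fit over 18 arrays). It was -0.72 without Gam1 replicate 3 and -0.23 without the pair of replicate 1.

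At early neurula the hoxc5.L probe sets had similar changes. Xl2.1213.1.S1_at gave 7.27, 7.50 and 7.74 on Gam1 and 8.57, 8.05 and 8.48 on water arrays, a change of -0.87 ± 0.22 (adjusted p = 0.49 in limma, 0.0211 and 0.103 in the paired fits over 18 and 12 arrays). Xl2.9047.1.A1_at gave 8.54, 8.07 and 8.88 against 9.81, 8.92 and 9.83, a change of -1.02 ± 0.34 (adjusted p = 0.658, then 0.0157 and 0.0836). The groups did not overlap in either. Xl2.53735.1.A1_at gave 9.61, 9.28 and 9.89 against 10.62, 9.88 and 10.95 and overlapped by 0.01 through Gam1 replicate 3. Its change was -0.89 ± 0.32 (adjusted p = 0.692 in limma, 0.00548 and 0.0379 in the paired fits).

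Here too replicates moved together. Gam1 replicate 3 was the highest Gam1 array for 8 of 8 probe sets and water replicate 3 the highest water array for 6 of 8. Pair 1 had the most negative difference in 7 of 8. The count of 6 at an unadjusted p under 0.05 was 0 without replicate 1, 1 without Gam1 replicate 1, Gam1 replicate 2 or water replicate 1, and 2 without water replicate 3. Here again no share of all probe sets was counted in the reduced fits.

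The effect of Gam1 was not called different between late gastrula and early neurula for any anterior Hox probe set in a limma fit of all 18 arrays, which called 0% of all probe sets as lower (0.0508% with the replicate block). The difference, early neurula minus late gastrula, was -1.65 ± 0.72 for hoxa2.L (unadjusted p = 0.038, adjusted p = 1 in limma, 0.172 with the replicate block) and -1.59 ± 0.61 for hoxb2.S (unadjusted p = 0.021, adjusted p = 1 in limma, 0.311 with the block). Both genes lay at the floor in Gam1 embryos at late gastrula, which limits how low they could be read there. Both were among the lower differences at an unadjusted p under 0.05, which made up 0.453% of all probe sets. With the replicate block 2 of the 8 were lower and 1 was higher at such a p, against 3.92% and 3.91% of all probe sets. For hoxc5.L the differences ran from 0.18 to 0.84, for hoxb4.S the difference was 0.43 ± 0.39 and for hoxd1 0.15 ± 0.30.

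The more posterior Hox genes were lower too. The trunk groups 6 to 8 had 11 probe sets of 6 genes. All 11 were below their water partner in each pair at both later stages, against 22% and 24.4% of all probe sets. Their median changes were -1.36 and -0.71. Of the 6 probe sets of groups 9 to 13, 6 and then 4 were lower in each pair, with medians of -0.88 and -0.76. Some of these were near the floor, with a water mean under 3. At late gastrula this held for 1 of the 11 trunk probe sets and 2 of the 6 of groups 9 to 13. At early neurula it held for 0 and 1. No trunk or posterior probe set was called in the unpaired fit. The paired fit over 18 arrays called 8 of the 11 trunk probe sets as lower at late gastrula and 2 at early neurula. It called 1 of the 6 of groups 9 to 13 at each of these stages. Among all probe sets 2.2% and 3.47% were lower and called. Examples at late gastrula are hoxb7.S (Xl2.803.1.S1_at, -1.36 ± 0.46) and hoxc8.S (-1.69 ± 0.81), trunk patterning genes, with an adjusted p = 1 each in limma and 0.0585 and 0.00195 in the paired fit over 18 arrays. At early neurula hoxc6.S (Xl2.1209.3.S1_a_at) had a change of -0.72 ± 0.21 and hoxd9 one of -1.38 ± 0.49 (adjusted p = 0.601 and 0.691 in limma). The anterior set was thus not shown to stand apart from the trunk and posterior sets, and no test of the difference was run.

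**Figure D4:**
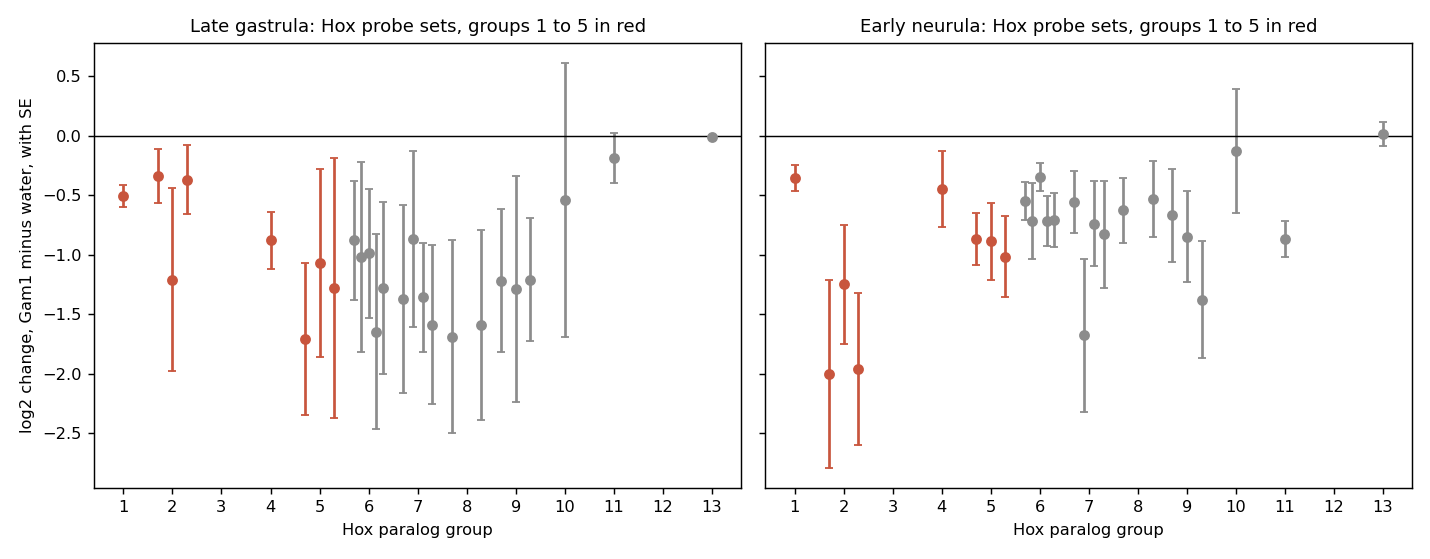
Log2 change (Gam1 minus water, with its SE from limma, 3 arrays a group) of every named Hox probe set against its paralog group number at late gastrula (left) and early neurula (right), groups 1 to 5 in red and groups 6 to 13 in grey. All red points lie below 0, from -1.71 to -0.34 at late gastrula and from -2.00 to -0.36 at early neurula.

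Among the lists of hindbrain segmentation, retinoic acid, posterior regulator, Hox cofactor and chromatin genes, the hindbrain segmentation list was most uniformly lower. Its 13 probe sets cover 7 of the 14 genes listed. All 13 probe sets of this list were lower at both later stages, where 49.2% and then 51.4% of all probe sets were lower, with medians of -0.46 and -0.45. At each of these stages 5 had an unadjusted p under 0.05, against 2.42% and 3.22% of all probe sets. The list was already lower at early gastrula, when the Hox probe sets were at or near the floor, with a median of -0.43. There 11 of 13 were lower, against 49.4% of all probe sets, and 9 in all 3 pairs, against 15.6%. In the unpaired fit 0 had an unadjusted p under 0.05, and with the replicate block 7 did, against 4.54% lower. In 4 of the 13 the water mean was under 3, near the floor. This was not particular to the list, since 17 of 18 neural plate and 17 of 19 endoderm probe sets were lower then, though only 6 of 15 for Hox cofactors. The Iroquois gene irx3.L changed by -1.55 ± 0.41 on Xl2.53689.1.A1_at at late gastrula (adjusted p = 0.832 in limma, 0.0327 in the paired fit over 18 arrays). The signal gene fgf3.L, which marks a hindbrain segment, changed by -0.82 ± 0.22 at early neurula (adjusted p = 0.551 and 0.0503).

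Of 30 probe sets for retinoic acid synthesis, breakdown and receptors, 26 were lower at late gastrula and 21 at early neurula, with medians of -0.22 and -0.04. The smallest p-values at late gastrula were those of cyp26c1.S (Xl2.1946.1.A1_at), an enzyme that degrades retinoic acid, with group means of 6.90 ± 0.32 under Gam1 and 8.56 ± 0.28 under water (-1.66 ± 0.25, adjusted p = 0.458 in limma, 0.00765 in the paired fit over 18 arrays), and of rdh10.L, an enzyme of its synthesis (-0.43 ± 0.07, adjusted p = 0.499 and 0.0683). The retinoic acid receptor gene rarg.S (Xl2.6965.3.S1_x_at) had a change of -0.21 ± 0.06 (adjusted p = 0.874 and 0.093).

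The 23 probe sets of caudal and other posterior regulators had medians of -0.30 and -0.04, with 20 and 12 lower at the 2 later stages. The Wnt gene wnt8b.S was near the floor, at 2.23 ± 0.07 in Gam1 against 3.38 ± 0.12 in water embryos at early neurula (-1.15 ± 0.07, adjusted p = 0.0912 in limma, 0.00523 in the paired fit over 18 arrays). At late gastrula 4 of the 23 were lower at an unadjusted p under 0.05, against 2.42% of all probe sets, and 1 was higher, against 1.97%. Among the lower were sp5.L (-0.43 ± 0.13, unadjusted p = 0.0221 in limma) and fgf8.L on 2 probe sets (-0.22 ± 0.07 and -0.30 ± 0.10, unadjusted p = 0.0232 and 0.0329). The higher one was wnt8a.L (Xl2.49.1.S1_a_at), a posteriorizing Wnt ligand, at 0.52 ± 0.19 (adjusted p = 1 in limma, 0.0841 in the paired fit over 18 arrays).

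The Hox cofactor list had medians of -0.30 and -0.21 over 15 probe sets. Its meis, pbx and pknox genes encode homeodomain proteins that bind DNA together with Hox proteins. The list also holds tgif1 and tgif2, which this description does not cover. In meis3.L (Xl2.452.2.S1_at), which is required for hindbrain formation in Xenopus, the late gastrula change was -0.58 ± 0.14 and that of early neurula -0.62 ± 0.20 (adjusted p = 0.766 and 0.628 in limma). The 28 probe sets of Polycomb and Trithorax regulators, which hold Hox genes off or on through chromatin, had medians of -0.06 and -0.10. In the unpaired fit 0 of them had an unadjusted p under 0.05 at either stage. Of all probe sets 2.42% were lower and 1.97% higher at such a p in the first of these stages. In the second, 3.22% were lower and 3.44% higher. With shares this small, a count of 0 among 28 does not show that these genes were unaffected.

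**Figure D5:**
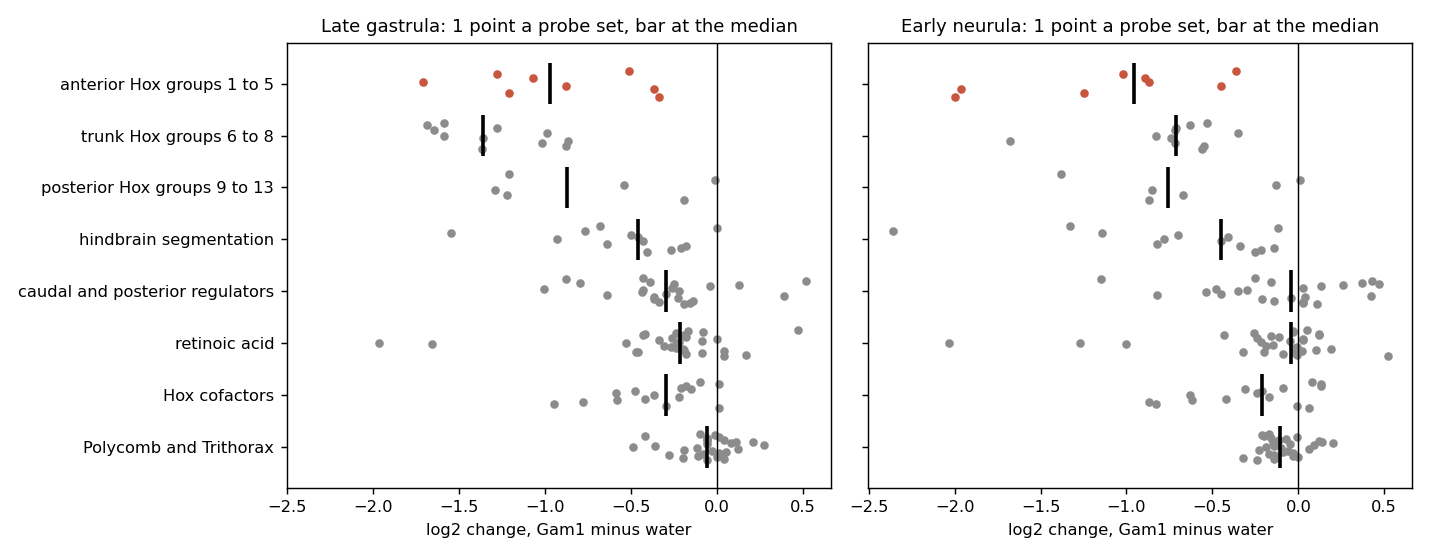
Log2 change (Gam1 minus water) of each probe set of 8 gene lists at late gastrula (left) and early neurula (right), 1 point a probe set with a black bar at the list's median. The anterior Hox medians are -0.98 and -0.96, those of hindbrain segmentation genes -0.46 and -0.45 and those of Polycomb and Trithorax genes -0.06 and -0.10.

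Markers of other regions of the whole embryo were also mostly lower, by less. At late gastrula 18 of 18 probe sets of neural plate markers were lower (median -0.31, mean signal per array 9.14 to 9.46 in Gam1 and 9.51 to 9.78 in water embryos), as were 16 of 16 for epidermis (-0.35) and 11 of 15 for mesoderm (-0.27). The endoderm list had 14 of 19 lower (-0.13) and the organizer and notochord list 9 of 11 (-0.17). At early neurula the medians were -0.31, -0.22, -0.32, -0.05 and -0.13 in the same order. The part of these lists in the Hox values was not tested.

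The genes whose signals ran most like each anterior Hox gene over the 18 arrays differed between the early and the late risers. These are Pearson correlations among 10942 probe sets, given as a description, and the points share their stages and clutches. The hoxd1 profile was closest to msgn1.L, a gene of presomitic mesoderm (r = 0.998), gjb2.L (0.998) and nrp2.S (0.997). The hoxb4.S profile was closest to ckmt1b.S (0.997), ehd4.L (0.996) and ripply2.2.L (0.996).

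For hoxb2.S the closest were nr2f2.L, an orphan nuclear receptor (r = 0.997), tmprss2.2.L (0.992) and slc2a12.L (0.992), and for hoxa2.L they were tmprss2.2.L (0.985), dmrta1.S (0.98) and the midbrain and hindbrain gene pax2.L (0.978). Other Hox genes came first for hoxa2.S (hoxb7.S, r = 0.993) and for hoxc5.L, whose 3 probe sets were closest to hoxc8.S (0.995 and 0.994) and to hoxa7.L (0.998). Within the anterior set r ran from 0.476 between hoxd1 and hoxa2.L to 0.991 between hoxc5.L probe sets, and hoxa2.L and hoxb2.S were at 0.973.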

How the data were processed

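The deposited table holds log2 values of 23701 probe sets on 18 arrays, made by the authors with Bioconductor by quantile normalization of the .cel data. Background correction and probe summarisation are not given in the sources used here. The 71 Affymetrix controls were left out. Of 23630 probe sets 12259 carried 1 symbol, 228 several and 11143 none, from the platform annotation with 2 symbols updated, and hoxd1 was named through the study's supplementary table (values matched within 0.001). Reference names came from Xenopus_laevis_v10.1.

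Gam1 and water embryos were compared per stage with limma 3.58.1 in R 4.3.3 (moderated, two-sided, spread following the signal). All adjusted p-values printed are limma's. The methods' t-test was computed apart from limma, with the same adjustment. Stages were compared within the 9 arrays of a treatment, and differences of the Gam1 effect in all 18 arrays. Deviations of same-numbered Gam1 and water arrays from their group means correlated at 0.686 to 0.941. Those of different numbers were at -0.62 to -0.233. Deviations within a group sum to 0, so values below 0 there follow from the same-numbered ones and add no support. The study ties replicates to egg clutches, and with the correlation of same-numbered arrays these are pairs. The main test took the arrays as unpaired, since the methods name Student's test and no pairing.

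The members and lists were chosen with earlier results of these data known. All anterior Hox probe sets are named, up to 4 genes per list with the smallest unadjusted p at either later stage, and the 3 genes most correlated with each member (mean of at least 5 in a group). The gene wnt8a.L is named beyond this rule, because it was higher in Gam1 embryos. Alternatives were pairing, shared spread, the methods' t-test, no trend, a mean of at least 4 or 6, median centring, repeated quantile normalization, and leaving out arrays or pairs. Array number limits the precision.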

Additional observations from a re-analysis of the deposited data

Results flagged for a closer look

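The hoxc5.L probe set Xl2.1213.1.S1_at was singled out because its Gam1 effect differed between late and early gastrula in the fit of all 18 arrays with the replicate block (difference -1.73, adjusted p = 0.044 in limma), which called 0.106% of all probe sets as lower. Without the block the adjusted p was 1. Its early gastrula means were 2.91 ± 0.05 (SD, n = 3) with Gam1 and 2.88 ± 0.02 with water. Both are near the floor, where a lower signal with Gam1 could hardly be measured.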

How the results depend on the processing

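At late gastrula and early neurula each anterior Hox probe set kept a lower signal in Gam1 embryos under the 17 to 19 alternatives that gave it a value. Most of these could not have reversed the direction. Pairing, shared spread, the t-test, no trend and the mean filters leave the difference of group means unchanged. Median centring and repeated normalization met arrays already normalized to a shared median. Leaving out a whole pair could not reverse the direction, since Gam1 was lower in each pair. Only leaving out single arrays could, where the groups overlapped, and there the signal stayed lower. The filters on the mean removed hoxa2.L, hoxa2.S and hoxb2.S at late gastrula and some others. What varied was the number called. Over all probe sets, where the unpaired fit called 0 at each stage, a fit of all 18 arrays called 49 at late gastrula and 139 at early neurula. With the replicate block added, those 18 arrays gave 38, 909 and 1890 from early gastrula on, of which 0, 4 and 5 were anterior Hox probe sets. The 12 later arrays with the replicate block, a fit chosen after the data were seen, gave 145 and 279, of which 2 and 2 were anterior Hox. Both block fits assume 1 spread for their stages. Requiring a mean of at least 4 gave 15 and 32 calls, and of at least 6 gave 14 and 33. The methods' t-test called 1 after adjustment at early gastrula.

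The anterior Hox counts at an unadjusted p under 0.05 were 0, 3 and 6 in the unpaired fit. The 3 and 6 were all lower, against 2.42% and 3.22% of all probe sets. With the replicate block within a stage, early gastrula had 1 lower and 1 higher, against 4.54% and 4.52%. Late gastrula had 5 lower in that fit, against 7.76%. All 18 arrays gave 1 at early gastrula and 3 at early neurula. With the block added they gave 1 lower at early gastrula, against 3.78%, and 6 lower at late gastrula, against 12.3%. The 12 later arrays gave 6 lower at late gastrula, against 10.1%, and the methods' t-test 2 at early neurula. For the 18 arrays without the block and for the t-test no share was counted. Leaving out arrays or pairs gave 0 to 1, 1 to 6 and 0 to 7 anterior Hox probe sets at such a p. It gave 0 to 2 and 0 to 7 calls over all probe sets at late gastrula and early neurula. In these reduced fits the share of all probe sets at an unadjusted p under 0.05 was not counted.

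For the stage course the replicate block raised the calls from late gastrula to early neurula from 1838 to 3890 in water and from 2832 to 5388 in Gam1 embryos, and the 18-array fit to 3649 and 4382. A mean of at least 4 or 6 removes the lowest Hox probe sets. The early to late gastrula median then went from 3.80 to 4.77 and 5.78 in water and from 2.37 to 4.38 and 4.91 in Gam1 embryos, where 3 were called at a mean of at least 6. For late gastrula to early neurula, a mean of at least 6 gave 3 and 2 calls with medians of 1.87 and 1.71. Leaving out a replicate gave 12 to 260 calls, 0 to 2 of them anterior Hox, in water. In Gam1 embryos it gave 31 to 418 calls, 0 to 4 of them anterior Hox, with medians of 1.93 to 2.89, and for early to late gastrula 3 to 6 with medians of 1.70 to 2.79.

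The difference of the Gam1 effect between stages had 1 call in each contrast. With the replicate block these were 45 for late minus early gastrula, 1 of them anterior Hox, and 25 for early neurula minus late gastrula. In the latter a mean of at least 6 gave 0. Leaving out a replicate gave 0 to 3 and 1 to 10. In that contrast leaving out a replicate gave -0.12 to 0.01 for hoxa2.S, above 0 without replicate 2, and -0.02 to 0.41 for hoxc5.L on Xl2.9047.1.A1_at, below 0 without replicate 3. Of the other alternatives for single probe sets, 582 kept direction and side of the threshold, 40 lost a call and 13 gained one. Apart from the calls above, the replicate block changed none. The cause of these changes was not tested, beyond the smaller samples and filtered tables some alternatives use.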
